A study of Mus musculus with 4 samples.

Results

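The genes described here are the numbered Zfp genes, whose mouse symbols are Zfp followed only by digits. Of 25965 listed rows, 302 had such a symbol on chromosomes 1 to 19 other than 13, with the pluripotency marker Zfp42 left out. The 273 chosen by a measured value had a mean log2 CPM (CPM, reads of a gene scaled to the library total) over the 4 libraries of at least 0, and they are called members below. The 29 that missed this level had a median of 2 reads at day 0 and of 10, 14 and 11 reads at day 6 (Nons, Smarca4.4, Smarca4.6), and 5 of them had no read in any library. Zfp319 is listed in 2 rows, of which 1 was kept (mean 2.68) and 1 was not (-0.45). Just inside the threshold were Zfp558 (mean 0.06), Zfp950 (0.09) and Zfp78 (0.10), and just outside were Zfp112 (-0.02), Zfp703 (-0.08) and Zfp14 (-0.10). Zfp112 fell outside although it had a level of 2.10 at day 0, because its day 6 levels lay between -1.04 and -0.33. Since the same libraries chose the members, counts and medians over them are descriptions.

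RNA-seq was performed on a female mouse embryonic stem cell (mESC) line from an F1 cross of the FVB and CAST strains. The day 0 library came from undifferentiated cells grown in 2i medium, before any virus was added. The 3 day 6 libraries came from cells moved into differentiation medium, given a virus with a short hairpin RNA on day 2 and selected with puromycin from day 3. Nons carries a hairpin without a target, and Smarca4.4 and Smarca4.6 carry 2 different hairpins against Smarca4, an ATPase of the BAF nucleosome remodelling complex. There is 1 library for each of the 4 groups, so no difference could be set against a spread between replicates, and the question put to the data was how the members' levels moved from day 0 to day 6 and with each hairpin. Both hairpin comparisons share the Nons library, and the change from day 0 to day 6 shares it too. The genotype field of the labels names Smarcc as the gene depleted in every day 6 library, the control among them, so groups were taken from the titles.

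Most numbered Zfp genes encode proteins with an array of C2H2 zinc fingers, each finger a small fold that holds a zinc ion and can contact DNA. Many also carry a KRAB domain at the amino terminus, which recruits the corepressor Trim28 and through it the histone methyltransferase Setdb1. KRAB zinc finger genes multiplied by local duplication, so they lie in clusters of related copies, and many of their proteins bind and silence retroelements or keep imprinted regions methylated in early embryos and mESCs. Other numbered Zfp genes are unrelated in function, and Zfp36, which fits the symbol rule, encodes an RNA-binding protein with a different type of finger.

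The deposited levels allowed whole reads to be recovered, with totals of 18599402 at day 0 and between 36495575 and 47143739 at day 6. Smarca4 (chromosome 9, 21616169 to 21704230, mm10) stood at 57.3% of its Nons level with Smarca4.4 and at 75.8% with Smarca4.6. Of 8 mESC markers, 6 were at least 2-fold lower in Nons day 6 than at day 0, while Pou5f1 (9.50 and 9.84 log2 CPM) and Tdgf1 (9.01 and 8.63) stayed high. Among 6 fibroblast-like markers, 3 of the 5 kept (Col1a1, Col1a2 and Tagln) were at least 2-fold higher at day 6. Col1a2 and Tagln had 3 and 7 reads at day 0. Of the 11996 other autosomal genes kept, 11.4% were at least 2-fold lower and 20% at least 2-fold higher. The list was not uniform, since Thy1 differed by 0.74 and Vim by -0.28. The defining gene Col3a1 was near the floor, with between 0 and 16 reads in the 4 libraries. A lower level in such bulk samples can come from fewer cells of a type or from less RNA per cell, and these cannot be told apart.

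A KRAB pattern was found in the translated coding sequence of 143 members and not in 129, and Zfp125 had no coding sequence to read. Members with the pattern held a median of 12 C2H2 fingers (range 2 to 33), against 7 (0 to 36) for those without. Zfp142 had the most fingers (36). The transcripts of KRAB members were poor in GC, with a median of 43.1%, against 50.03% for the members without and 50.4% for the 11996 other autosomal genes kept. Promoters, taken as 250 bases before and 50 after the start in RefSeq, were found for 127 members with and 99 without the pattern. Those of KRAB members held a median of 11 CpG dinucleotides, against 19 and, in the other autosomal genes, 22.

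The letters GAGTGACA, searched on both strands, stood in 21 of the 127 KRAB promoters (16.5%), in 1 of the 99 promoters of members without KRAB (1.01%) and in 1.66% of all 27025 RefSeq mouse promoters of this length. They were noticed in these sequences before they were counted. In 18 of the 21 genes they lay on the strand opposite to the gene, where they read TGTCACTC along it, and in 16 of these within 70 to 130 bases upstream of the start. The 21 genes lay on 7 chromosomes. The 4 neighbours of the chromosome 2 cluster all held them, and their promoters are shown because they let the shared block be read across duplicated genes. Each stretch runs 5′ to 3′ on the gene's strand (RefSeq, GRCm38.p6), and capitals mark TGTCACTC.
Zfp120, chr2:150136723-150136790, minus strand: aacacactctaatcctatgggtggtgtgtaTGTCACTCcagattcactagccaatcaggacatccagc
Zfp937, chr2:150217990-150218057, plus strand: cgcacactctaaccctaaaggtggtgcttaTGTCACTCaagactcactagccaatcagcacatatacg
Zfp442, chr2:150451555-150451622, minus strand: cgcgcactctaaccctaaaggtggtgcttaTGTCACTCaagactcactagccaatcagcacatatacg
Zfp345, chr2:150485140-150485207, minus strand: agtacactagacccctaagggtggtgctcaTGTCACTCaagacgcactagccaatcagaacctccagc
The letters ccaat, the core of the CCAAT box bound by NF-Y, follow in all 4. On both strands CCAAT stood in 55.1% of KRAB promoters, 38.4% of those without KRAB and 37.9% of all promoters. KRAB members whose promoter held GAGTGACA had median differences of 0.14 with Smarca4.4 and 0.18 with Smarca4.6, and the 106 KRAB members whose promoter did not hold it had 0.21 and 0.31.

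Members were expressed at lower levels than other autosomal genes. Their median was 3.38 log2 CPM at day 0, and at day 6 it was 3.51 (Nons), 3.62 (Smarca4.4) and 3.74 (Smarca4.6). The other autosomal genes had medians of 4.54, 4.603, 4.62 and 4.66. Within the members, those with a KRAB pattern had a median of 3.04 at day 0 and 3.01 in Nons, against 4.31 and 4.26 for those without. On the scale of log2 CPM per kb of transcript, the highest mean levels were those of Zfp207 (6.36), a spindle assembly factor, the RNA-binding protein gene Zfp106 (6.14) and Zfp706 (5.58). They were followed by Zfp664 (5.50), Zfp534 (4.99) and Zfp568 (4.92), a KRAB gene that represses a placental transcript of Igf2.

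From day 0 to Nons day 6 the members did not move as a block. Their median difference was -0.08 on the log2 scale (quartiles -0.51 and 0.50), and 127 of 273 were higher at day 6. The other autosomal genes had a median of 0.06 (quartiles -0.47 and 0.74). To compare genes of like expression, each member was set against the median of the other autosomal genes in its own of 20 bins of mean level, and the median excess was -0.15, with 39.2% of members above their bin. It was -0.27 for KRAB members and -0.03 for the rest. At least 2-fold higher were 40 members (14.7%), where the background was 20% of the other autosomal genes, and at least 2-fold lower were 31 (11.4%), where it was 11.4%. The share that was lower was thus that of the background, and the share that was higher was under it. This holds for genes that passed the level, which averages more day 6 than day 0 libraries. Genes read mainly at day 0, such as Zfp112, can miss it. With no filter, 46 numbered Zfp genes were at least 2-fold higher and 46 lower, counts not set against an unfiltered background. The 46 lower include the 5 genes with no read in any library, which stand at -4.37 at day 0 and -5.67 in Nons. The 95% counting interval, which covers counting error of the reads only, lay above 0 for 93 members (34.1%, background 43.9%) and below 0 for 113 (41.4%, background 38.9%).

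The members at least 2-fold lower included genes known for silencing in early embryos. Zfp57, a KRAB gene that keeps imprinted regions methylated, had 7.14 log2 CPM at day 0, and at day 6 4.75 (Nons), 4.82 (Smarca4.4) and 4.67 (Smarca4.6). It was 2.38 lower in Nons than at day 0 (95% counting interval -2.48 to -2.28), while the 3 day 6 libraries lay close together. Zfp819, tied to retroelement repression in pluripotent cells, had 3.98, 1.65, 1.87 and 2.07 in the same order of libraries, which is kept below, a difference of -2.32 (-2.62 to -2.03). Zfp961 had 6.36, 4.68, 4.99 and 5.02, a difference of -1.68 (-1.79 to -1.57). The day 0 library was the highest for all 3 genes.

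The other members of the list of imprint and retroelement KRAB genes held their level more closely. Zfp445, which acts with Zfp57 at imprinted regions, was 0.37 higher in Nons (0.24 to 0.51), with 5.03, 5.40, 5.64 and 5.81. Zfp568 had 7.82, 7.59, 7.64 and 7.76. Zfp809, which recognises the primer binding site of murine leukaemia virus, had 3.66, 3.53, 3.76 and 3.54, and Zfp932 had 4.19, 4.06, 4.16 and 4.45. Of the 8 genes listed, 7 were members, since Zfp708 lies on chromosome 13. Of these 7, 3 were at least 2-fold lower (background 11.4%) and none at least 2-fold higher (background 20%) in Nons.

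The largest fall was that of Zfp428 (chromosome 7, 24507006 to 24515682), from 5.94 at day 0 to 2.16, 2.23 and 2.79 in the day 6 libraries. The difference of -3.78 (-4.005 to -3.57) rested on 1141 reads at day 0 and 204 in Nons. Zfp296, an mESC factor used in reprogramming, came next with 4.53 at day 0 and 1.92, 2.06 and 1.81 at day 6. The KRAB gene Zfp28 fell by 2.60, Zfp229 by 2.56, Zfp59 by 2.14 and Zfp600 by 2.01. Zfp600 overlaps Gm13165 and belongs to a group of near-identical copies, so its reads may be shared with other genes. For Zfp229 the levels were 6.78, 4.22, 4.57 and 4.34, and for Zfp600 they were 5.31, 3.31, 4.09 and 3.59.

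The rises were led by genes without a KRAB pattern that were close to unread at day 0. Zfp608 (chromosome 18) had 0 reads at day 0 and 1123 in Nons, which makes it at least 152-fold higher when set against 3 reads. Its day 6 levels were 4.62, 4.43 and 5.03. Zfp629 rose from 3 to 417 reads (difference 5.82, counting interval 4.26 to 8.10), Zfp467 from 3 to 249 (5.08, 3.51 to 7.36) and Zfp579 from 2 to 165 (5.07, 3.19 to 8.13). Zfp36, which encodes tristetraprolin and promotes decay of mRNAs with AU-rich elements, had 1.48 at day 0 and 5.15, 5.18 and 5.30 at day 6. The KRAB genes Zfp647, Zfp677 and Zfp316 followed, higher by 3.35, 3.15 and 2.96, from between 9 and 10 reads at day 0.

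**Figure D1:**
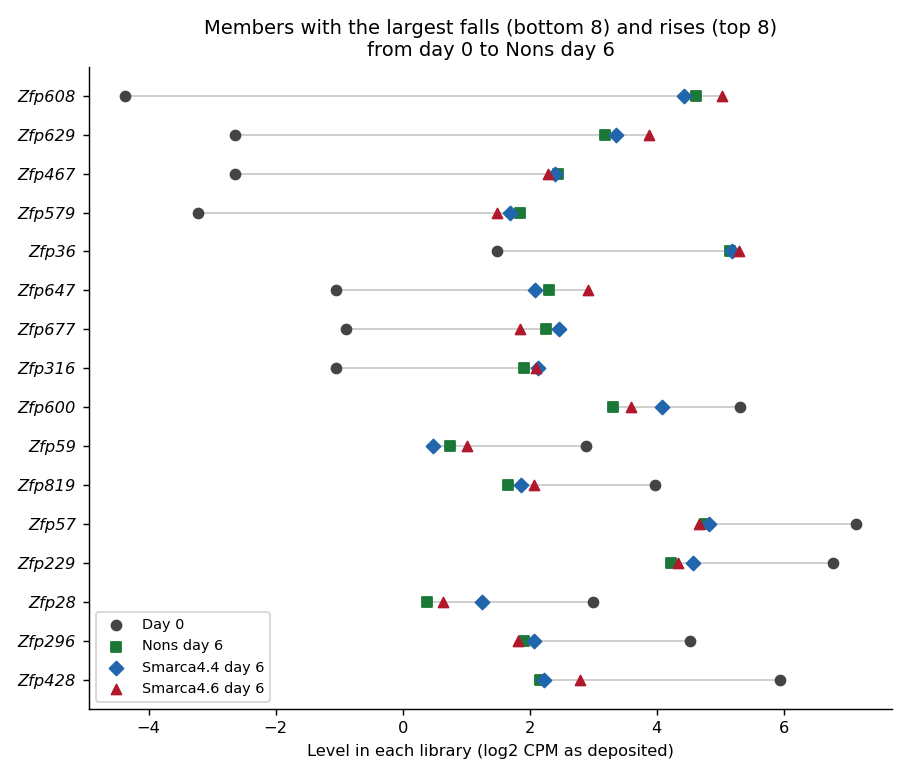
Levels in each of the 4 libraries (log2 CPM, horizontal axis) of the 8 members that fell and the 8 that rose most from day 0 (circles) to Nons day 6 (squares), with Smarca4.4 (diamonds) and Smarca4.6 (triangles). In each gene the 3 day 6 libraries lie nearer to each other than to day 0; Zfp608 has 0 reads at day 0, and its circle stands at the value the table gives for that.

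The remaining lists hold genes of other roles and are read against the same backgrounds, 20% at least 2-fold higher and 11.4% at least 2-fold lower. Among 7 mESC factors, 1 (Zfp296) was at least 2-fold lower in Nons and none at least 2-fold higher. Zfp217 was 0.71 higher (5.78 at day 0 and 6.49 in Nons), Zfp706 was 0.80 lower (8.28 and 7.48), and Zfp281, a regulator of the exit from naive pluripotency, was 0.29 higher (6.82 and 7.11). Zfp143 (5.33 and 5.32) and Zfp219 (6.28 and 6.29) stood at nearly the same level in both libraries, and Zfp462 had 6.97 and 6.82. Among 10 lineage and developmental genes, 5 were members: Zfp467 and Zfp521, which act in osteoblasts and adipocytes, were at least 2-fold higher, while Zfp423 (3.06 and 2.25), Zfp335 (4.71 and 4.26) and Zfp516 (6.34 and 5.91) were lower. Of 10 genes of RNA handling, translation and division, 8 were members and 1, Zfp36, was at least 2-fold higher. The ribosome-collision ubiquitin ligase gene Zfp598 had 6.39 and 6.29.

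The cofactors that KRAB proteins need were also read. Trim28 had levels of 10.45, 9.28, 9.40 and 9.74 log2 CPM. Setdb1 had 6.70, 6.43, 6.49 and 6.58. Of the 20 rows found for a list of 20 cofactor symbols, which held Atf7ip in 2 rows and lacked 1 symbol, 4 were at least 2-fold lower in Nons than at day 0 (background 11.4%): Trim28, the remodeller Chd3 (6.01 to 4.34), the DNA methyltransferase Dnmt1 (8.77 to 7.60) and its partner Uhrf1 (9.31 to 7.73). The HUSH complex subunit Pphln1, 2.66 higher, was the 1 row at least 2-fold higher (background 20%). The counting interval lay below 0 for 15 of the 20 rows, set against the background of 38.9% above. Most of these rows had a mean level above the median of the other autosomal genes (4.56 log2 CPM). Intervals narrow with more reads, so these 2 shares are not like for like. With the hairpins no cofactor was 2-fold different, and the list medians were 0.08 with Smarca4.4 and 0.14 with Smarca4.6.

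With each hairpin the members lay slightly higher than in Nons. The median difference was 0.13 with Smarca4.4 (quartiles -0.03 and 0.24), where 195 of 273 members (71.4%) were above 0, and 0.20 with Smarca4.6 (quartiles 0.03 and 0.41), where 215 (78.8%) were. The other autosomal genes had medians of 0.03 and 0.06, with 54.8% and 57.8% above 0. Against genes of like expression the median excess was 0.11 and 0.13, and 69.96% and 72.5% of members lay above their bin. Few members moved far. At least 2-fold higher were 1 member with Smarca4.4 (0.366%, background 0.775%) and 4 with Smarca4.6 (1.47%, background 0.959%). No member was at least 2-fold lower with Smarca4.4 or Smarca4.6, where the backgrounds were 0.342% and 0.834%.

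Counting intervals lay above 0 for 112 members with Smarca4.4 (41.0%, background 32.9%) and below 0 for 33 (12.1%, background 25.5%). With Smarca4.6 they lay above 0 for 143 (52.4%, background 38.8%) and below 0 for 20 (7.33%, background 25.1%). The Smarca4.6 library exceeded the Smarca4.4 library for 193 of 273 members, with a median of -0.10 for Smarca4.4 minus Smarca4.6, against -0.03 for the other autosomal genes. The largest gaps between the hairpins were those of Zfp78 (1.24) and Zfp647 (-0.84). Smarca4 itself was lower with Smarca4.4 (57.3% of Nons) than with Smarca4.6 (75.8%). The larger member median (0.20 against 0.13) thus came with the hairpin that lowered Smarca4 less, and a link between them was not tested.

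The medians were higher in KRAB members, a difference that was not tested. Their median differences were 0.19 with Smarca4.4 and 0.27 with Smarca4.6, with 111 and 126 of 143 above 0, against 0.08 and 0.11, with 83 and 88 of 129 above 0, for members without the pattern. The median excess over genes of like expression was 0.16 and 0.20 for KRAB members and 0.06 and 0.05 for the rest. Counting intervals lay above 0 for 66 KRAB members (46.2%) with Smarca4.4 and 81 (56.6%) with Smarca4.6, and for 45 (34.9%) and 61 (47.3%) members without KRAB, where the backgrounds were 32.9% and 38.8%. They lay below 0 for 5 (3.50%) and 6 (4.20%) KRAB members and for 28 (21.7%) and 14 (10.9%) members without, where the backgrounds were 25.5% and 25.1%. KRAB members had a lower median of mean level (3.16 log2 CPM) than members without (4.21) and the other autosomal genes (4.56). Fewer reads widen the intervals, and the part of depth in these shares was not tested. All 5 members at least 2-fold higher with a hairpin carried a KRAB pattern. They were 1 KRAB member with Smarca4.4 (0.699%, background 0.775%) and 4 with Smarca4.6 (2.80%, background 0.959%). With 1 CPM added before the logarithm, 0 members passed this fold with either hairpin. Among KRAB members the medians with Smarca4.6 were 0.24 for 5 to 9 fingers (34 genes), 0.28 for 10 to 14 (71 genes) and 0.28 for 15 and over (36 genes), and without KRAB they were 0.07 (43 genes), 0.14 (28 genes) and 0.33 (17 genes).

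**Figure D2:**
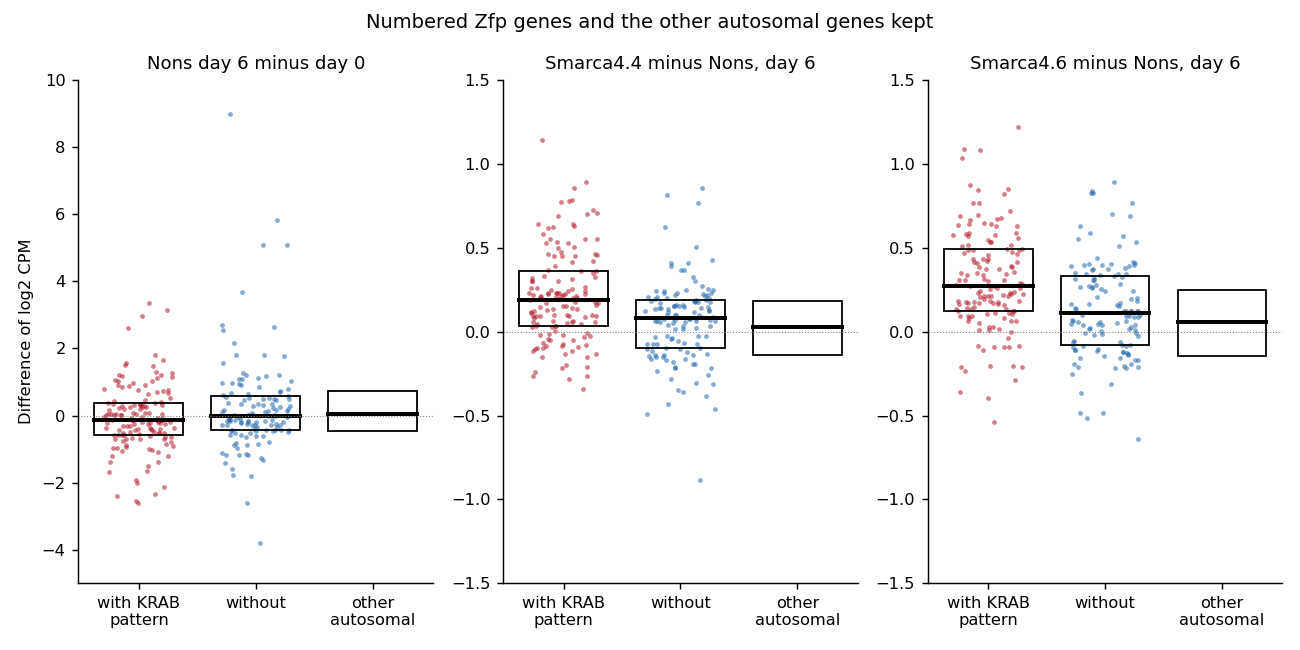
Differences of log2 CPM (vertical axis, wider in the left panel) for members with and without a KRAB pattern (1 point per gene) and for the other autosomal genes, for which boxes alone are drawn; boxes span the quartiles and thick lines mark medians. The medians of KRAB members are -0.14 from day 0 to Nons day 6, 0.19 with Smarca4.4 and 0.27 with Smarca4.6.

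GC content moved with these results. Among the other autosomal genes the median difference with Smarca4.4 went from 0.12 in the lowest of 5 equal classes of transcript GC content (under 44.5%) to -0.07 in the highest (56.1% or more), and with Smarca4.6 from 0.08 to 0.02. From day 0 to Nons day 6 it went from -0.03 to 0.37. The lowest class held 123 of the 273 members. There the members had medians of 0.19 and 0.26 with Smarca4.4 and Smarca4.6, and in the next class 0.07 and 0.17, where the other genes had 0.06 and 0.06. When members were set against genes of like expression and like GC content (5 by 5 bins), the median excess was 0.057 with Smarca4.4 and 0.12 with Smarca4.6. For KRAB members it was 0.08 and 0.19, and for the rest 0.03 and 0.06. Without GC content in the bins the values over all members were 0.11 and 0.13, and the part of GC content in what remained was not tested. With bins of expression and promoter CpG count instead, over the 226 members with a promoter, the excess was 0.11 and 0.17. In the class of promoters poorest in CpG (81 members) the members had medians of 0.17 and 0.26 and the other genes 0.01 and 0.02. In the richest class (22 members) the members had 0.055 and 0.060 and the other genes 0.058 and 0.066, so members there stood no higher than other genes.

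**Figure D3:**
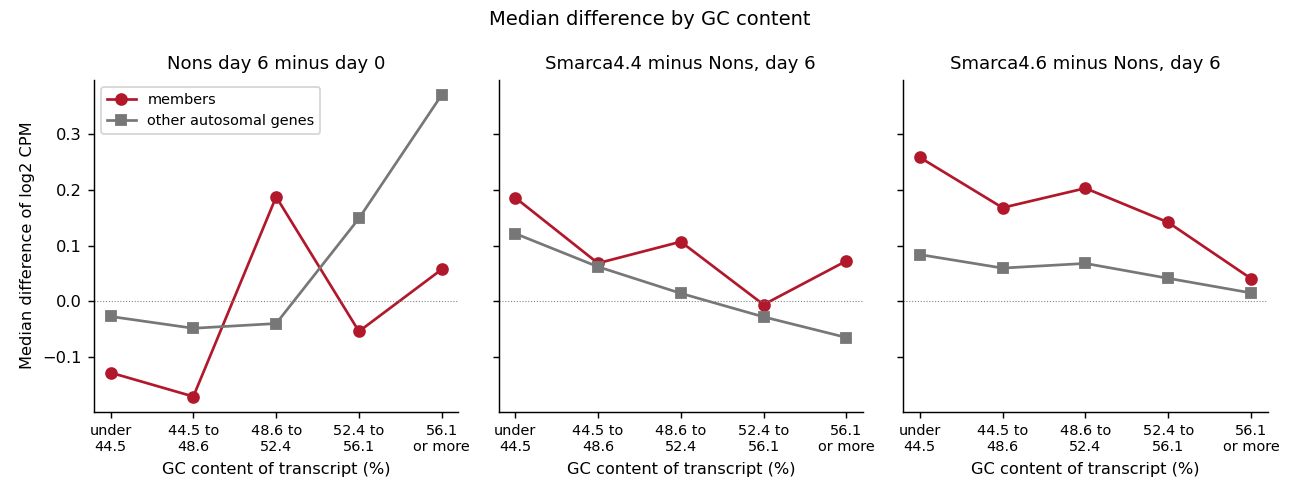
Median differences of log2 CPM (vertical axis) of members (circles) and of the other autosomal genes (squares) in 5 classes of transcript GC content (horizontal axis, %), in 3 comparisons. Members lie above the other genes in all 5 classes with Smarca4.4 and with Smarca4.6, by the least in the second class with Smarca4.4 (0.07 against 0.06).

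At every level the members' median was above that of the other genes with each hairpin, by the least at 6 log2 CPM and over. In members with a mean of 0 to 2 log2 CPM (53 genes) the medians were 0.20 with Smarca4.4 and 0.25 with Smarca4.6, against 0.02 and 0.05 in the other genes. At 2 to 4 (113 genes) they were 0.12 and 0.24, against 0.01 and 0.06. At 4 to 6 (80 genes) they were 0.13 and 0.17, against 0.02 and 0.06. At 6 and over (27 genes) they were 0.08 and 0.09, against 0.04 and 0.06. On the 13 chromosomes with 5 or more members, the members' median was above that of the other genes of the chromosome on 12 with Smarca4.4 and on 11 with Smarca4.6. It was above on 6 of the 13 from day 0 to Nons day 6. Chromosome 7 held 75 members, with medians of 0.14 and 0.26 where its other genes had -0.02 and 0.04, and chromosome 17 held 39, with 0.17 and 0.16 against -0.02 and 0.03.

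The members highest relative to Nons with Smarca4.6 were KRAB genes of chromosome 7 and Zfp125. Zfp719 had levels of 3.002, 3.01, 3.56 and 4.10 log2 CPM. With Smarca4.6 it was 1.09 higher than in Nons (0.90 to 1.28) and with Smarca4.4 0.55 higher (0.36 to 0.74), so the day 0 and Nons libraries were alike and both hairpin libraries above them. Its neighbour Zfp658 had 0.74, 0.10, 0.88 and 1.32, with differences of 1.22 (0.70 to 1.75) and 0.79 (0.26 to 1.32), and rested on between 31 and 91 reads. Zfp324 had 1.62, 0.91, 1.53 and 1.99, and Zfp27 had 2.87, 2.34, 2.70 and 3.37. Zfp125, which is on chromosome 12, had 0.03, -0.06, 0.71 and 0.90.

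With Smarca4.4 the largest difference was that of the KRAB gene Zfp9 on chromosome 6, with levels of 0.74, -0.31, 0.83 and 0.57. Its difference of 1.14 (0.57 to 1.74) rested on 37 reads in Nons and 84 in Smarca4.4. Zfp612, Zfp28, Zfp438 and Zfp174 were higher by 0.89, 0.86, 0.85 and 0.81. With Smarca4.6 these 4 genes had 0.31, 0.25, 0.70 and 0.06, with a counting interval that spans 0 for Zfp612, Zfp28 and Zfp174. Zfp612 overlaps Gm17720 and Zfp174 overlaps Zfp597.

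Zfp580 was the lowest member relative to Nons with each hairpin. It had levels of 1.27, 2.23, 1.35 and 1.59, with differences of -0.88 (-1.22 to -0.56) and -0.64 (-0.99 to -0.30). Of the day 6 libraries, Nons alone was high for this gene, which overlaps Gm15510. With Smarca4.4 Zfp521, Zfp827, Zfp787 and Zfp691 followed at -0.49, -0.46, -0.43 and -0.38. With Smarca4.6 Zfp516, a factor of brown fat development, was 0.51 lower (interval -0.60 to -0.42), with 6.34, 5.91, 5.81 and 5.40. Zfp78, Zfp750 and Zfp352 had -0.54, -0.49 and -0.48 with intervals that span 0.

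**Figure D4:**
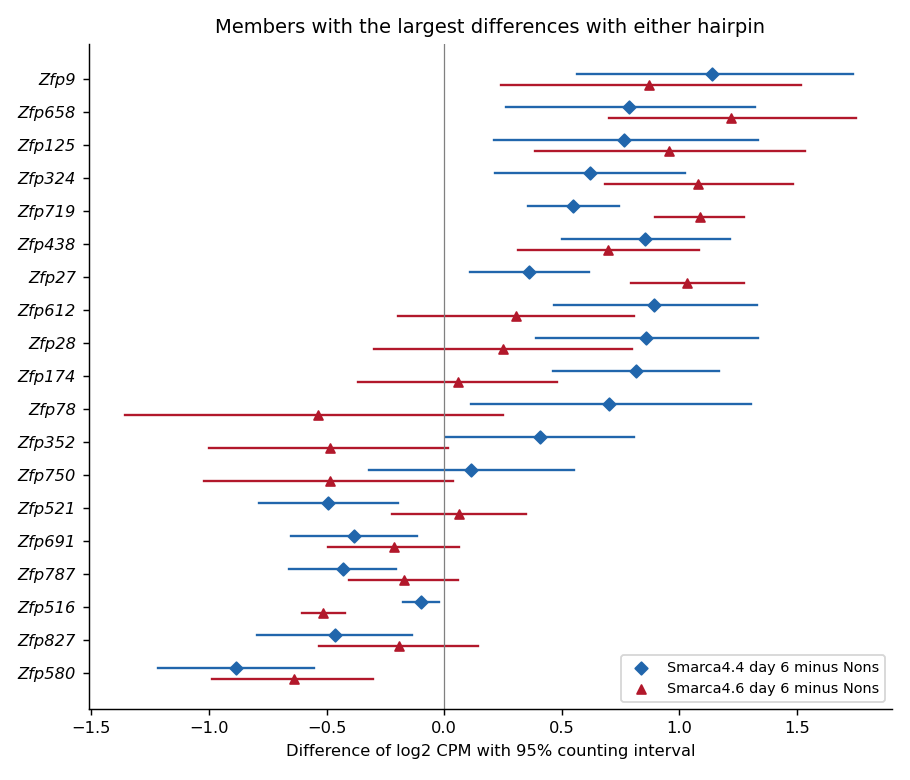
Differences of log2 CPM from Nons at day 6 (horizontal axis) with 95% counting intervals (lines) for Smarca4.4 (diamonds) and Smarca4.6 (triangles), in the 5 members highest and the 5 lowest with each hairpin. Zfp658 and Zfp719 reach 1.22 and 1.09 with Smarca4.6, Zfp9 reaches 1.14 with Smarca4.4, and Zfp580 lies below 0 with each.

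In the fixed lists, the 7 imprint and retroelement KRAB members had medians of 0.21 with Smarca4.4 and 0.34 with Smarca4.6, and intervals above 0 for 4 and 5 of them, where the backgrounds were 32.9% and 38.8%. Zfp445 was 0.24 higher (0.15 to 0.33) and 0.41 higher (0.32 to 0.50), whereas Zfp57 had 0.06 (-0.05 to 0.18) and -0.09 (-0.21 to 0.04). The 7 mESC factors had medians of -0.12 and -0.06. Zfp281 was 0.37 and 0.28 higher, while Zfp219, with levels of 6.28, 6.29, 5.94 and 6.04, was 0.35 and 0.25 lower. The 5 lineage genes had medians of -0.04 and 0.06, and the 8 genes of RNA handling 0.08 and 0.12.

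Clusters were defined as 3 or more members that follow each other on a chromosome with gaps of at most 500 kb. There were 23, holding 141 members, of which 101 had a KRAB pattern. Members in clusters had median differences of 0.16 with Smarca4.4 and 0.27 with Smarca4.6, members outside clusters 0.09 and 0.13, and the 97 other genes kept inside the same spans 0.00 and 0.10. Among KRAB members alone the medians were 0.20 and 0.30 in clusters and 0.11 and 0.21 outside. The cluster median was above that of the other autosomal genes in 18 of 23 clusters with Smarca4.4 and in 21 with Smarca4.6, and in 11 from day 0 to Nons day 6. Of the 16 clusters that held other genes, the members' median was above theirs in 11 with each hairpin.

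The cluster with the highest Smarca4.4 median was the one on chromosome 7 from 43187170 to 43618285 (mm10), which holds Zfp936, Zfp715, Zfp658, Zfp719 and Zfp819, all with a KRAB pattern. Its medians were 0.55 with Smarca4.4 (range 0.21 to 0.79) and 0.47 with Smarca4.6 (range 0.34 to 1.22), and all 5 genes were above 0 with each. The 3 other genes kept in the span had medians of -0.09 and 0.10. From day 0 to Nons day 6 the same cluster had a median of -0.64, from -2.32 in Zfp819 to 0.01 in Zfp719. Zfp936 had 4.04, 2.11, 2.74 and 2.57, and Zfp715 had 4.46, 4.10, 4.32 and 4.44. The promoters of the 3 neighbours Zfp658, Zfp719 and Zfp819 are shown because the genes lie side by side and differ in how far they moved. Capitals mark GCATGCGC, the longest run shared by all 3 as read on this strand, which has the letters of the binding motif of the activator NRF1, and each stretch runs 5′ to 3′ on the plus strand (RefSeq, GRCm38.p6).
Zfp658, chr7:43562120-43562419, plus strand: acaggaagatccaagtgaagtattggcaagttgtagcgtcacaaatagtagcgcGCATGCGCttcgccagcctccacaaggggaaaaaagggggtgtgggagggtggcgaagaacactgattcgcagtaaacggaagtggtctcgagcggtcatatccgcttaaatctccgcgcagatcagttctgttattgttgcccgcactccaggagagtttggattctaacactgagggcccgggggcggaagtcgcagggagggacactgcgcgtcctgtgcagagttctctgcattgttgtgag
Zfp719, chr7:43579336-43579635, plus strand: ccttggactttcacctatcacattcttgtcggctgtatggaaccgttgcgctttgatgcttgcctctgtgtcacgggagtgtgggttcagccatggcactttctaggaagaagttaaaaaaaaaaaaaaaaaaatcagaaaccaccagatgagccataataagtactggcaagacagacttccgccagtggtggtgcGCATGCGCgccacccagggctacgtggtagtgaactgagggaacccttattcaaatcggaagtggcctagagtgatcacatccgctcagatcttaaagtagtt
Zfp819, chr7:43606919-43607218, plus strand: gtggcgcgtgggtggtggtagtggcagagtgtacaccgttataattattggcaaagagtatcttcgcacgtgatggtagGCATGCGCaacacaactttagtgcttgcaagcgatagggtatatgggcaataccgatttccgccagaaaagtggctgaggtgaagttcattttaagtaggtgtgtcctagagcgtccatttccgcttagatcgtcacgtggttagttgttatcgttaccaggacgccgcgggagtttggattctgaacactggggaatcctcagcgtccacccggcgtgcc
The letters GCATGCGC, searched on both strands, stood in 6.30% of KRAB promoters, 6.06% of those without KRAB and 2.80% of all RefSeq promoters, and in 5.83% of those of the other autosomal genes kept.

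The cluster with the highest Smarca4.6 median lay on chromosome 7 from 24081924 to 24515682 and held 8 members, 5 of them with KRAB. Its medians were 0.34 and 0.63, against -0.01 and -0.04 for the 3 other genes in the span. Zfp109 had levels of 1.31, 1.32, 1.62 and 2.17, the highest Smarca4.6 difference here (0.85), and Zfp111, with 3.74, 2.85, 3.57 and 3.49, had the highest with Smarca4.4 (0.72). Zfp61, at 2.75, 0.99, 0.92 and 1.06, was the lowest with each. The same cluster holds Zfp428, so it spans the largest fall from day 0 to Nons (-3.78) and rises of 1.48 in Zfp93 and 1.79 in Zfp94.

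The largest cluster had 20 members on chromosome 17 from 21008941 to 23599487, of which 19 carried KRAB. Its median was 0.33 with each hairpin, with 18 of 20 above 0 in either comparison, but the 3 other genes kept there had 0.38 and 0.80. Zfp52, at 1.71, 3.37, 3.998 and 3.95, had the highest Smarca4.4 difference (0.63), and Zfp947, at 2.32, 1.39, 1.89 and 2.24, had the highest with Smarca4.6 (0.85). Zfp13 (-0.24) and Zfp677 (-0.40) were the lowest with Smarca4.4 and Smarca4.6. A second chromosome 17 cluster, from 32771236 to 33631779, held 11 members, 10 with KRAB, and its medians were 0.04 and 0.10. There the highest were Zfp563 (0.23 and 0.41), and the lowest Zfp952 (-0.20 with Smarca4.4) and Zfp414 (-0.31 with Smarca4.6).

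The 13 members on chromosome 7 from 29768552 to 30169727 had medians of 0.14 and 0.27, with Zfp27 (1.03) the highest and Zfp82 (-0.09) the lowest with Smarca4.6. The 7 members from 12415153 to 12984340 had 0.20 and 0.40, with Zfp324 (1.08) the highest and Zfp329 (0.11) the lowest with Smarca4.6. The 4 other genes kept in that span had 0.09 and 0.50, below the members with Smarca4.4 and above them with Smarca4.6. On chromosome 8 the 4 KRAB members from 71887264 to 71993408 had 0.34 and 0.43, from Zfp961 (0.34) to Zfp882 (0.72) with Smarca4.6; Zfp882 and Zfp617 overlap, and reads in the overlap can count for both. The chromosome 2 cluster shown above, from 150114406 to 150485091, had 0.13 and 0.23, from Zfp120 (0.13) to Zfp345 (0.55) with Smarca4.6. The 3 other genes kept in its span had 0.51 and 0.20, above the members with Smarca4.4 and below them with Smarca4.6.

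Other clusters lay lower. The 5 members from 4915217 to 5053722 on chromosome 7, none with a KRAB pattern, had medians of -0.15 with Smarca4.4 and -0.09 with Smarca4.6 and the highest median of any cluster from day 0 to Nons day 6 (0.96). They ran with Smarca4.6 from Zfp580 (-0.64) to Zfp628 (0.44). The 3 KRAB members on chromosome 15 from 76852148 to 76918010 had -0.21 and 0.17, with none above 0 with Smarca4.4. Of these, Zfp7 had 4.93, 5.59, 5.24 and 5.48, and Zfp647 had -1.05, 2.30, 2.08 and 2.92.

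**Figure D5:**
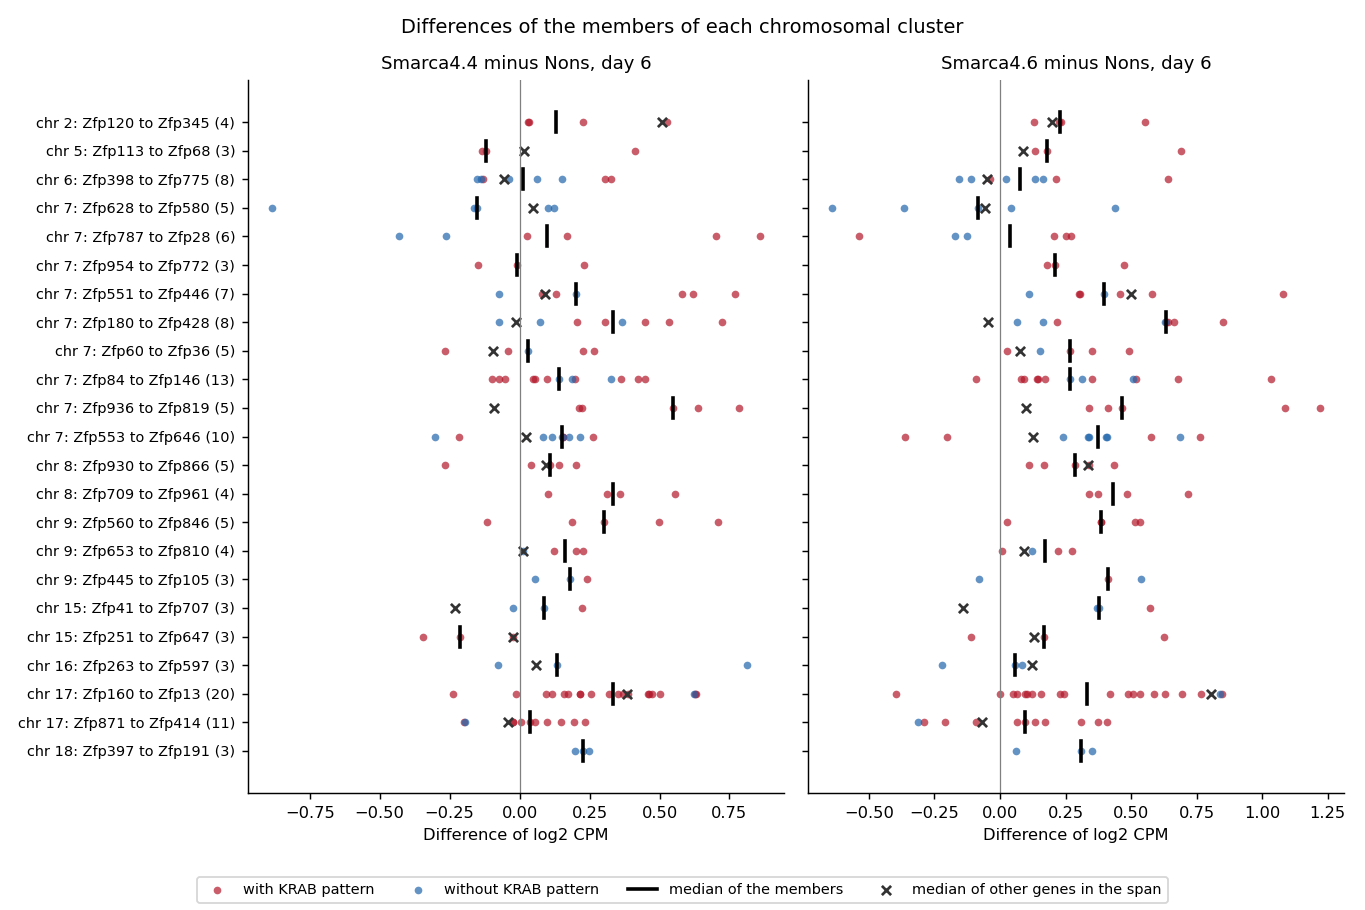
Differences of log2 CPM from Nons (horizontal axes) of each member in the 23 chromosomal clusters (rows, named by chromosome, first and last member and number of members), with Smarca4.4 on the left and Smarca4.6 on the right. Thick bars are the members' medians and crosses the medians of other genes in the span; medians run from -0.21 to 0.55 on the left and from -0.09 to 0.63 on the right.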

How the data were processed

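RNA-seq values came from 4 libraries, 1 per group. The authors aligned paired-end reads to mm10 with positions that differ between FVB and CAST masked (their methods name tophat and hisat2, the labels HISAT2), and quantified genes in SeqMonk. The values deposited are log2 CPM per gene with both alleles combined. The strand setting and the treatment of reads that fit several copies were not given in the sources used here, so values of near-identical paralogues and of the 37 members that overlap another listed gene are uncertain, and antisense reads cannot be told apart.

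Back-transformed values were whole multiples (tolerance 0.01 of a read) of 1 step for every value of up to 1000 reads, and unread genes stood at 0.9 of it, which gave reads and totals (18599402, 45759793, 47143739 and 36495575 in the order day 0, Nons, Smarca4.4, Smarca4.6). The floor, set at 3 reads per library, was 0.161, 0.0656, 0.0636 and 0.0822 CPM in that order. Differences were taken between deposited values. With 1 library per group no test was run, and exact (Clopper-Pearson) 95% intervals of read ratios cover counting error only and compare libraries, not conditions.

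The members, lists and comparisons were chosen with earlier results of these data known. The genes named are the members of 4 lists, the 8 largest rises and falls from day 0 to Nons day 6, the 5 largest with each hairpin, the extreme members of each cluster named, Smarca4, Trim28, Setdb1 and other cofactors at least 2-fold different, and the genes beside the threshold. Others are named where a cluster or scale is described. Transcript GC content, coding sequences and lengths came from GENCODE M21 (longest transcript; 9 members stand there under another symbol) and promoters from RefSeq. GC content was known for all 273 members and for 10783 of the 11996 other autosomal genes kept. The KRAB reading was planned on RefSeq proteins and made instead on translated GENCODE coding sequences with 3 letter patterns of the A box, widened after known KRAB genes had been missed, so a gene without the pattern may still encode a diverged or unread KRAB domain. Sequences are of the reference strain, not FVB or CAST. The computations were tested on simulated reads. Alternatives were a stricter level (3 in place of 0), all genes without a level, 1 CPM added before the logarithm, centring, other bins and other gaps. Computations were made in Python 3.11.15 (numpy 2.4.6, scipy 1.17.1, pandas 2.3.3).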

Additional observations from a re-analysis of the deposited data

How the results depend on the processing

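No paired analysis was possible because there is a single library of every kind, all with the same replicate number, and leaving out a library leaves no comparison. Over the alternatives, all 38 medians with either hairpin stayed above 0, while 17 of 19 from day 0 to Nons day 6 were below 0. The alternatives reuse the same libraries, and the other autosomal genes also had medians above 0 with the hairpins (0.03 and 0.06). The median excess over genes of like expression ran from 0.057 to 0.11 with Smarca4.4 and from 0.11 to 0.17 with Smarca4.6. Values that left the 95% order-statistic interval of the median over genes, or counts that moved by over 1.5 times, were these. Centring on the autosomal median gave member medians of 0.14 with Smarca4.6 and -0.066 between the hairpins. Bins of expression and GC content gave an excess of 0.057 with Smarca4.4. With a mean of at least 3, 14 members were at least 2-fold higher and 12 lower from day 0 to Nons day 6, 0 were higher with Smarca4.4 and 1 with Smarca4.6, and clustered members had a median of 0.20 with Smarca4.6. With no filter, 9 were higher with each hairpin and 1 lower with Smarca4.6. A pseudocount of 1 CPM left 0 higher with each. The counts in this paragraph were not set against a background under the same setting, so they describe the members alone. The cause of these moves was not tested, beyond the smaller number of genes under the stricter level. Leaving out members that overlap another gene, added later along with promoter CpG bins, moved no median outside its interval. Depth limits the lowest members most, since a gene at 0 log2 CPM has a level of 1 CPM, and no difference here could be checked in a replicate.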

Other observations

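Zinc finger genes outside the symbol and chromosome rule were read in the same way, and those named here were chosen after their values were seen. Families were sorted by the listed symbol. In GENCODE the members Zfp161, Zfp238 and Zfp295 stand as Zbtb14, Zbtb18 and Zbtb21, and Zfp167 and Zfp498 as Zkscan7 and Zscan25. They are counted here with the members only. The 29 numbered Zfp genes kept on chromosome 13 had medians of -0.19 from day 0 to Nons day 6, 0.20 with Smarca4.4 and 0.30 with Smarca4.6, and 25 and 24 of them were above 0 with the hairpins. Zfp455 was the one at least 2-fold higher with the hairpins, by 1.06 and 1.07 (backgrounds 0.775% and 0.959%). At least 2-fold lower in Nons than at day 0 were Zfp459, Zfp640 and Zfp708, by -2.06, -2.37 and -1.19 (background 11.4%). The 5 kept on the X chromosome had medians of -0.98, 0.50 and 0.27 in the same order. Of these, Zfp711 (-2.53) and Zfp182 (-1.29) were at least 2-fold lower in Nons than at day 0 (autosomal background 11.4%). With Smarca4.6 Zfp711 was 1.19 higher than Nons (autosomal background 0.959%). Zfp185 went the other way, with 0.70 from day 0 to Nons, -0.09 with Smarca4.4 and -0.23 with Smarca4.6.

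Among 17 Zscan and Zkscan genes, which pair fingers with a SCAN domain, 4 were at least 2-fold higher with Smarca4.4 (background 0.775%): Zscan4b (1.34), Zscan4c (1.42), Zscan4d (1.49) and Zscan4e (1.73). The Zscan4 genes mark the state of mESCs that resembles the early cleavage embryo, and as near-identical copies they may share reads. All 4 were low in the day 0 library, from -3.22 (Zscan4e) to -1.05 (Zscan4c) log2 CPM. In Nons they were higher, from 0.53 (Zscan4e) to 1.92 (Zscan4d). The medians over the 17 genes were 0.31 with Smarca4.4 and 0.29 with Smarca4.6, with 13 above 0 in each comparison, where the numbered Zfp members had 0.13 and 0.20, and none was 2-fold different with Smarca4.6. These medians count the 4 Zscan4 copies. Without them the middle gene was Zkscan6 with Smarca4.4 (0.08) and Zscan18 with Smarca4.6 (0.29). The 34 Zbtb genes had medians of 0.07 and 0.09 with the hairpins and none was 2-fold different. The backgrounds were 0.775% higher and 0.342% lower with Smarca4.4, and 0.959% and 0.834% with Smarca4.6. Of 12 Klf genes, Klf2 (-6.02), Klf4 (-4.98), Klf15 (-2.32) and Klf5 (-1.82) were at least 2-fold lower in Nons than at day 0 (background 11.4%). Klf7 was at least 2-fold higher (3.18, background 20%), and Klf15 was lower with Smarca4.4 (-1.15, background 0.342%).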
